A study of Mus musculus with 16 samples.

Results

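Typical granule cells (GCs) of the wild-type (WT) mouse dentate gyrus (DG) were taken as 3611 nuclei of 9830 WT nuclei, and of 17015 nuclei in all 8 mice. A nucleus was chosen when it held 3 or more unique molecular identifiers (UMIs, each one captured RNA molecule) over 6 identity genes, *Prox1*, *Rfx3*, *Glis3*, *Chst9*, *C1ql2* and *Plk5*. It also had to hold 0 UMIs over 5 genes of other cell classes (*Gad2*, *Mog*, *Pdgfra*, *Gja1*, *Inpp5d*) and 6 genes of GC subtypes (*Sorcs3*, *Ror1*, *Npnt*, *Fst*, *Ryr1*, *Capn3*). The levels of these genes therefore chose the nuclei, and they are given below as a description without a test. Microdissected, frozen DG of 4 WT mice (labelled VV) and 4 mice homozygous for the V321L substitution in *Nrg1* (labelled LL), 2 females and 2 males of each, gave 1 library per mouse of RNA and accessible chromatin from the same nuclei. The labels give no age or strain, no other allele and no treatment, and the methods give an age range for all mice of the study together and none for these 8. WT mice are called F1, F2, M1 and M2 after their sex. No sort of nuclei is stated in the sources used here.

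GCs are the principal neurons of the DG. They receive cortical input on dendrites in the molecular layer and send mossy fibres to CA3 pyramidal cells and hilar mossy cells. *Prox1* encodes a homeobox transcription factor that is required for GC fate over CA3 fate, *Rfx3* a transcription factor of the RFX family known for ciliary genes, and *Glis3* a Krüppel-like zinc-finger factor that localizes to the primary cilium. *Chst9* encodes a carbohydrate sulfotransferase, *C1ql2* a secreted C1q-like protein of mossy fibre synapses that binds neurexins and kainate receptors, and *Plk5* a member of the polo-like kinase family.

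Promoters are shown for 4 genes whose chromatin is described below, 3 in regions that were more accessible in typical GCs and *Rfx3*, the main contributor to the choice, whose promoter region did not pass the test. Each sequence runs 5′ to 3′ on the gene's strand from 250 bases before to 50 after a start site in RefSeq on GRCm38.p6, and each lay wholly inside an accessible region. Capitals mark the E-box CANNTG, the motif read by basic helix-loop-helix factors, and the RFX core GTTGCC, both searched on both strands, and no 2 matches overlapped.
Prox1, chr1:190170778-190171077, minus strand: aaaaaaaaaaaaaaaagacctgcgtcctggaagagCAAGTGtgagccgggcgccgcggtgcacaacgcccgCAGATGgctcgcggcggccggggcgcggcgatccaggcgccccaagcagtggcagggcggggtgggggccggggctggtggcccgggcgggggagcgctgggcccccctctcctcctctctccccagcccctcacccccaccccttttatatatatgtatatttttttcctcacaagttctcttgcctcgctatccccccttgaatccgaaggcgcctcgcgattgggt
C1ql2, chr1:120340332-120340631, plus strand: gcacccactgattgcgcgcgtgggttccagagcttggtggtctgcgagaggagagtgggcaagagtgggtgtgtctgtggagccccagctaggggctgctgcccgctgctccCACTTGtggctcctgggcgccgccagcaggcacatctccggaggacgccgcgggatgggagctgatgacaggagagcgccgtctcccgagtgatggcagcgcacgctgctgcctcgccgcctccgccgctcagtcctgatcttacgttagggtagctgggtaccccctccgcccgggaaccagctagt
Stxbp6, chr12:45074434-45074733, minus strand: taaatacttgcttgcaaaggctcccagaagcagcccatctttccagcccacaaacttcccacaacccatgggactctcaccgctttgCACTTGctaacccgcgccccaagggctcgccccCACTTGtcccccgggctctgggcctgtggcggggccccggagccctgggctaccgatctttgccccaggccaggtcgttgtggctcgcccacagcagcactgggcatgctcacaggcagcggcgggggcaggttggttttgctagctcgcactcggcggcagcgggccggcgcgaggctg
Rfx3, chr19:28011117-28011416, minus strand: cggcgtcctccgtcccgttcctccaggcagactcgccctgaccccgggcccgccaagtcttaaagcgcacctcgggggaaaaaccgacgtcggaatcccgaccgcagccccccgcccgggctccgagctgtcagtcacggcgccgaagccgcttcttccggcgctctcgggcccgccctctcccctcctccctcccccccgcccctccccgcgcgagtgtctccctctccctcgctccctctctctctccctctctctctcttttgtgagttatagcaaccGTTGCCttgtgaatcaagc
The *Prox1* window held the E-boxes CAAGTG and CAGATG, the *C1ql2* window 1 CACTTG and the *Stxbp6* window 2. CANNTG is a common motif, with a match in 72.3% of 32851 promoter windows of this length, so its presence sets none of these promoters apart. GTTGCC, in the *Rfx3* window, was found in 12.5% of all windows. Among windows of genes tested below, 64.5% of those higher in typical GCs and 66.5% of those lower held an E-box against 63.2% of all tested, and for GTTGCC the shares were 13.3%, 11.1% and 12.7%. RefSeq windows matched 5 of the 6 identity genes, and a match describes letters in a window and not a bound site.

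Typical GCs made up a similar share of the nuclei of each WT mouse. They numbered 658 in F1 (35.9% of its nuclei), 1340 in F2 (35.6%), 745 in M1 (37.6%) and 868 in M2 (38.5%). Of the 9830 WT nuclei, 6836 held 3 or more identity UMIs, 6324 of these were left after the 5 class genes, and 2713 more were removed by a subtype gene. The nuclei removed at that last step were sequenced more deeply, with median UMIs of 2832, 2284, 1394 and 2596 in F1, F2, M1 and M2 against 1655.5, 1377, 1121 and 1732.5 in typical GCs. The requirement for 0 UMIs thus kept shallower nuclei, and whether the removed nuclei differed in more than depth was not tested. The summed depth behind the values of typical GCs was 1355678, 2375600, 979460 and 1875574 RNA UMIs per mouse. Median ATAC counts per nucleus were 4520, 1977.5, 5692 and 3900.5, and the median mitochondrial share lay between 0.0629% and 0.129%. No pair of WT libraries shared more than 13 nuclear barcodes or more than 2 barcodes of typical GCs.

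*Rfx3* did most of the choosing. It gave 67.0%, 67.7%, 64.8% and 69.0% of the identity UMIs of typical GCs in F1, F2, M1 and M2, and *Glis3* gave 21.7%, 20.2%, 23.7% and 19.4%. Between 72.8% and 83.6% of the nuclei reached 3 UMIs from *Rfx3* alone, and between 1.42% and 3.36% had no *Rfx3* UMI. No more than 5.31% of identity UMIs came from *Prox1*, the gene most used to name GCs, and *C1ql2* and *Plk5* each gave less than 1%. The median nucleus held 8, 8, 5 and 7 identity UMIs, and none of the 3611 had all 6 genes.

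Levels are given as UMIs of a gene per 1000000 UMIs of the class (CPM), without correction for gene length, so they were compared between nuclei and not between genes. *Rfx3* stood at 3614, 3999, 3303 and 3325 CPM in typical GCs of F1, F2, M1 and M2, and *Glis3* at 1171, 1194, 1206 and 937 CPM, with M2 below the other 3 mice. *Prox1* was the steadiest of the 6 genes, at 254, 266, 271 and 242 CPM. *Chst9* ranged from 256 CPM in M1 to 428 CPM in F2. The 2 rarest genes varied most, *C1ql2* at 34.7, 12.6, 41.9 and 19.7 CPM and *Plk5* at 11.8, 7.58, 17.4 and 5.86 CPM, and both were highest in M1 and then F1. These 2 levels rest on 155 and 62 UMIs over the 4 mice.

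The comparison class was 1426 nuclei (249, 604, 268 and 305 per mouse) with 4 or more UMIs over *Nectin3*, *Cntnap5c*, *Trps1*, *Hs3st4* and *Mgat4c* and 0 *Prox1* UMIs. Another 194 nuclei met both definitions and were kept as typical GCs only. Comparison nuclei were deeper, with median UMIs of 3247, 2165, 2012 and 3194, and they were mixed. Among them 303 held 3 or more identity UMIs and 102 held the GABAergic gene *Gad2*. The RNA and ATAC tests were therefore also run against 535 stricter comparison nuclei with 0 UMIs over all 6 identity genes and the 5 class genes. Low levels of GC, glial and GABAergic genes in them follow in part from that choice, and so do larger differences from typical GCs. *Prox1* was 0 in comparison nuclei by definition. Mean *Rfx3* was 684 ± 188 CPM there against 3560 ± 325 in typical GCs (SD, n = 4 mice), *Glis3* 179 ± 54.2 against 1127 ± 127, *Chst9* 93.6 ± 29.97 against 322 ± 74.3 and *C1ql2* 3.49 ± 2.30 against 27.2 ± 13.4. The ratios of the means were 5.20 for *Rfx3*, 6.29 for *Glis3*, 3.44 for *Chst9* and 7.80 for *C1ql2*. In each of these genes the 4 mice of one class lay above the 4 of the other. Since these genes chose the typical GCs, the ratios and this separation follow in part from the choice.

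Barcodes with few UMIs held the rarer genes at levels that overlapped or exceeded those of typical GCs. Those with 100 or fewer UMIs, too few to count as nuclei here, stood between 231 and 348 CPM for *Prox1*, between 40.8 and 68.7 for *C1ql2* and between 8.64 and 35.6 for *Plk5* in the WT libraries. Whether some of them held a nucleus was not tested. Typical GCs did not exceed these ranges in *Prox1*, *C1ql2* or *Plk5*, and comparison nuclei, at 3.49 ± 2.30 CPM of *C1ql2*, lay below them. *Rfx3*, *Glis3* and *Chst9* were above them in every mouse, since the same barcodes held at most 1047 CPM of *Rfx3*, 229 of *Glis3* and 81.6 of *Chst9*. Among nuclei with enough UMIs to be thinned to 1000, which were 2596 of the 3611 typical GCs and 1236 of the 1426 comparison nuclei, a *C1ql2* UMI was found in 2.72% ± 1.29 and 0.360% ± 0.114 (SD, n = 4). Over all nuclei without thinning the shares lay between 2.24% and 6.69% and between 0.331% and 1.20% per mouse.

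**Figure D1:**
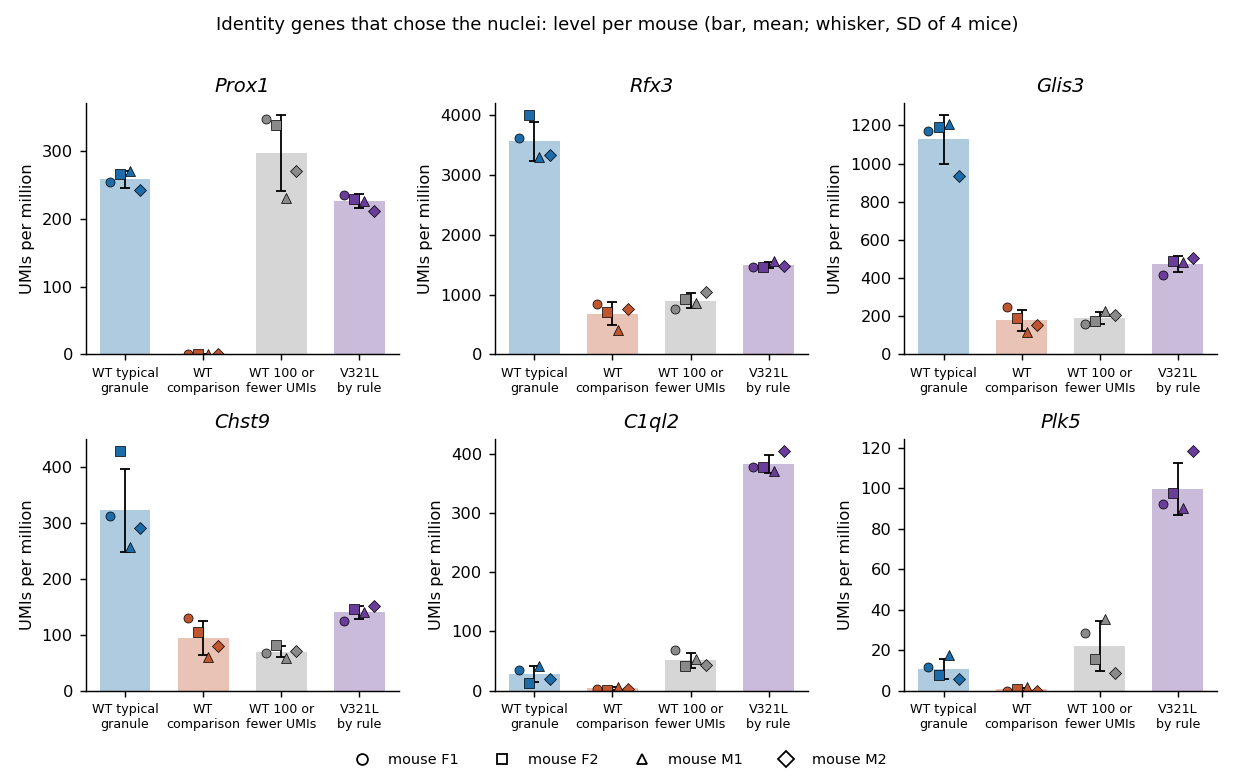
Level of each identity gene (y axis, CPM, from 0) in WT typical GCs, WT comparison nuclei, WT barcodes with 100 or fewer UMIs and V321L nuclei chosen by the same rule. Bars are means, whiskers the SD of 4 mice and symbols single mice. Rfx3, Glis3 and Chst9 of WT typical GCs lie above the low-UMI barcodes, and C1ql2 reaches 404 CPM in V321L nuclei against at most 41.9 in WT typical GCs and 68.7 in WT low-UMI barcodes.

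The threshold of 3 identity UMIs divided nuclei that both carried GC markers. In the 510 nuclei with 2 identity UMIs and none of the excluding genes, 18 GC markers outside the rule summed to 10828 ± 3844 CPM, and in the 463 with 3 UMIs to 13621 ± 1720 CPM (SD, n = 4). All typical GCs together stood at 18176 ± 716 CPM, the GC nuclei removed by a subtype gene at 18615 ± 754 CPM the comparison nuclei at 4951 ± 861 CPM and the stricter comparison nuclei at 1930 ± 256 CPM.

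The same rule gave 1856 nuclei in the V321L mice, between 24.6% and 27.2% of nuclei per mouse, and their identity genes had another composition. *C1ql2* stood at 378, 377, 370 and 404 CPM in the 4 V321L mice, 14.0 times the WT mean, and *Plk5* at 92.2, 97.5, 90.3 and 118 CPM, 9.35 times the WT mean. WT means were higher for *Rfx3* (2.38 times the V321L mean), *Glis3* (2.38 times) and *Chst9* (2.30 times), while *Prox1* was within 1.14 times. Depth and mitochondrial share moved with genotype, at medians of 2952.5 to 4083 UMIs and 0.357% to 1.08% in V321L against 1121 to 1732.5 UMIs and 0.0629% to 0.129% in WT. Low-UMI barcodes differed in the same direction for *C1ql2* and *Rfx3*, with 181 to 284 CPM and 85.1 to 99.3 CPM in V321L. For *Prox1*, which differed little between the chosen nuclei, these barcodes held 56.2 to 83.1 CPM in V321L against 231 to 348 CPM in WT. Because these genes chose the nuclei and library properties moved with genotype, no test between genotypes was made, and genotype and library preparation cannot be told apart in these values.

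For genes outside the rule, UMIs were summed per mouse and class and tested with edgeR's quasi-likelihood test with mouse as a block and Benjamini-Hochberg adjustment at 0.05. Both classes were separated on RNA of the same nuclei, so a gene that accompanies the rule's genes is not independent of the choice. With the block, p-values weigh the class difference within mice against how much it varied over these 4 mice. Of 9523 genes tested, 1321 were higher in typical GCs (13.9%) and 1563 lower (16.4%). Of these, 443 higher and 820 lower genes differed at least 2-fold. The number of genes tested differed between settings. DESeq2, run without the expression filter, called 679 of 23268 genes higher (2.92%) and 874 lower (3.76%). After thinning to 1000 UMIs per nucleus 759 of 6413 were higher (11.8%) and 905 lower (14.1%). Without the block 859 of 8282 were higher (10.4%) and 1076 lower (13%). Against the stricter comparison nuclei 1079 of 7730 genes were higher (14.0%) and 1059 lower (13.7%), and 941 of the 1236 higher and 948 of the 1293 lower genes tested in both were called the same way. No higher gene changed sign there, whereas 44 lower genes did and 6 of these were called higher.

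Among genes outside the rule at 50 CPM or more, *Stxbp6*, which encodes the SNARE-binding protein amisyn, had the largest rise over the comparison nuclei. It stood at 1235, 1218, 1048 and 1153 CPM in typical GCs of F1, F2, M1 and M2 and at 177, 166, 147 and 241 CPM in comparison nuclei. The classes were far apart in every mouse, with a log2 fold change of 2.67 ± 0.10 (SE, edgeR quasi-likelihood test, Benjamini-Hochberg adjusted p = 6.18e-19), which rose to 6.54 against the stricter nuclei. *Trpc6*, a diacylglycerol-gated cation channel, stood at 492, 480, 507 and 499 CPM against 101, 77.9, 59.96 and 116 CPM (log2 fold change 2.46). Its level in typical GCs was nearly the same in the 4 mice. *Dsp*, which encodes desmoplakin, a plaque protein of desmosomes that is a known GC marker, stood at 53.8, 35.4, 74.5 and 66.6 CPM against 18.9, 5.48, 11.7 and 5.48 CPM (2.51). *C1ql3*, the paralogue of *C1ql2*, stood at 204, 131, 202 and 186 CPM against 50.02, 23.7, 39.98 and 35.6 CPM (2.29). None of these genes overlapped between the classes, as was true of 917 of the 1321 higher genes.

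The other 8 of the 12 genes with the largest rise at 50 CPM or more had log2 fold changes between 2.24 and 2.45. They were *Sipa1l2* (2.45), a Rap GTPase-activating protein, *Gpc4* (2.43), a heparan sulfate proteoglycan, and *Dock10* (2.42) and *Tiam1* (2.26), guanine nucleotide exchange factors for small GTPases. The rest were *Fam163b* (2.34), *Shisa9* (2.31), an AMPA receptor auxiliary subunit abundant in GCs, *Cntnap5a* (2.30), a neurexin-related adhesion molecule, and *Frmd4b* (2.24). All 12 were also higher in V321L nuclei of the same rule, with log2 fold changes between 2.00 (*Sipa1l2*) and 4.19 (*Trpc6*).

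The 8 genes with the largest fall in typical GCs, among those at 50 CPM or more, included several that interneurons express. *Erbb4*, a receptor for neuregulins that is abundant in interneurons, stood at 52.4, 114, 38.8 and 56.5 CPM in typical GCs and at 1592, 1135, 673 and 2134 CPM in comparison nuclei (log2 fold change −4.34). *Nxph1* (−4.46), which encodes a neurexin ligand of interneurons, and *Grik1* (−4.08), a kainate receptor subunit, behaved in the same way. Against the stricter nuclei, which have no *Gad2*, their log2 fold changes were −2.27, −2.11 and −2.14. The fall in these 3 genes was smaller, though still called, against the stricter nuclei. Those nuclei also hold no UMIs of the identity genes or of the other class genes. Which of these exclusions accounts for the smaller fall was not tested. *Galntl6* (−4.00), *Cntn6* (−3.92), *Etl4* (−3.76), *Nell1* (−3.72) and *Cntnap4* (−3.64) kept −3.48, −4.14, −4.24, −4.17 and −2.95 against the stricter nuclei. *Nell1* stood at 37.6, 43.8, 34.7 and 34.7 CPM against 511, 563, 468 and 449 CPM. All 8 genes fell in every mouse, which was a condition of their choice.

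**Figure D2:**
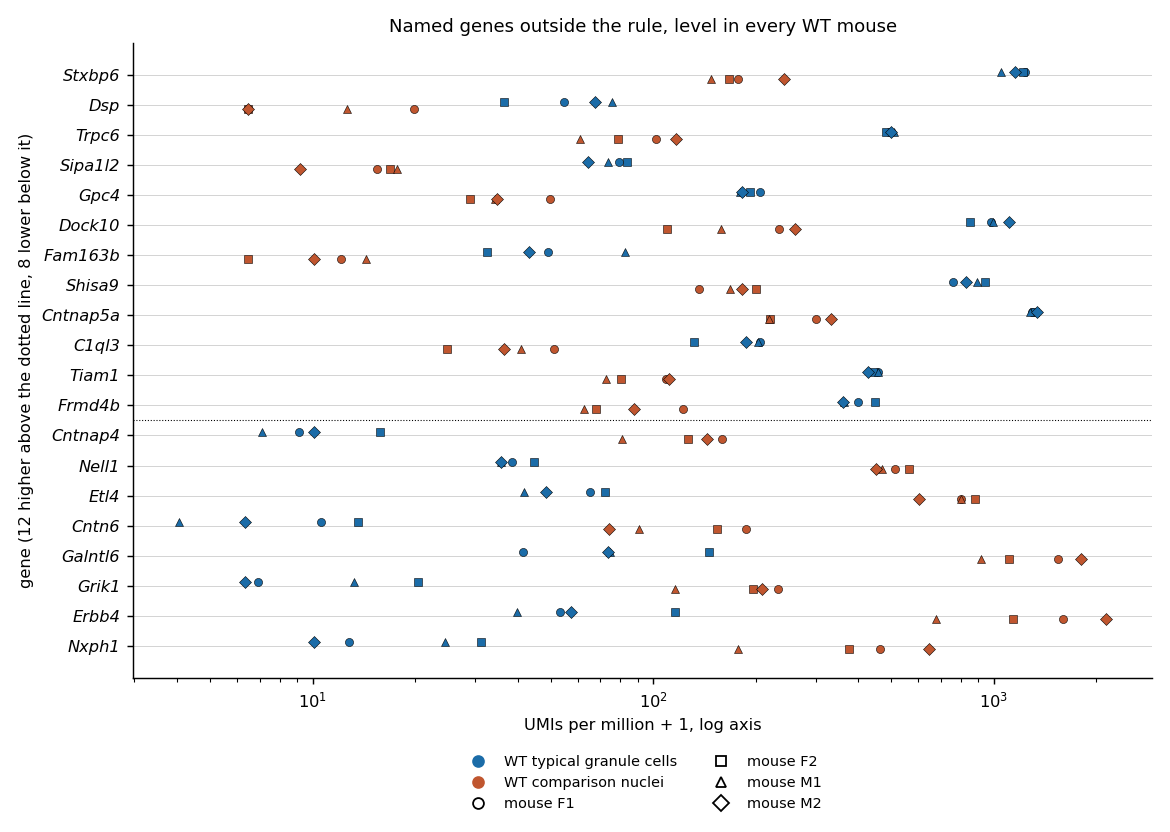
Level of 12 genes highest and 8 genes lowest in WT typical GCs relative to comparison nuclei, among genes outside the rule at 50 CPM or more. The x axis is CPM + 1 on a log axis, with 1 symbol per mouse and class. The classes do not overlap for any of the 20 genes, as for Stxbp6 with 1048 or more in typical GCs and at most 241 in comparison nuclei. Among all called genes, 917 of 1321 higher and 1053 of 1563 lower genes did not overlap.

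Markers of GCs that the rule did not use were high in these nuclei. This list was chosen with earlier results of these data known, so it is no independent evidence for the label. Of 18 listed markers 16 were tested, 14 were higher and none was lower, at a median log2 fold change of 2.26 beside −0.01 over all genes tested and with 13.9% of all genes called higher. *Ntf3*, which encodes the growth factor neurotrophin-3, rose by 2.87 and *Calb1*, the calcium buffer calbindin of mature GCs, by 2.22. *Lrrtm4*, a postsynaptic adhesion protein of excitatory synapses in the DG, rose by 1.80, with at least 9212 CPM in typical GCs and at most 3422 CPM in comparison nuclei of any mouse. *Il16* (−0.03) and *Rasl10a* (0.63) did not pass. Against the stricter nuclei 14 of 15 were higher with a median of 3.61, and 15 of 16 were higher in V321L. *Pdyn* and *Cygb*, with 30 and 31 UMIs in typical GCs, were too low to test.

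Markers of other cells were read against both comparison classes, since some changed with the class used. All 6 tested CA3 pyramidal markers were lower (16.4% of all genes were, at a median of −0.01), and all 5 tested were against the stricter nuclei, *Elavl2* by −3.04 at 53.1, 79.98, 41.9 and 90.1 CPM against 525, 563, 543 and 600 CPM. The 8 CA3 markers summed to 888 ± 68.9 CPM in typical GCs, 2284 ± 211 CPM in comparison nuclei and 2797 ± 159 CPM in the stricter ones (SD, n = 4), with *Cpne4* giving the most UMIs in typical GCs. Of 3 tested CA1 markers 2 were lower and 1 higher in both comparisons, with a median of −2.48 in the main one. *Mpped1* (−3.36) was lower, and *Zbtb20*, which GCs also express, was higher by 0.31, a call lost without the block (0.30), and made up nearly all of the 6496 ± 418 CPM of that list. Of GABAergic markers 5 of 7 were lower beside 16.4% of all genes, with a median of −2.43, but against the stricter nuclei 2 of 5 were higher and 2 lower, with a median of 0.52. *Adarb2* alone was higher (1.54), at 2029, 2005, 2381 and 2278 CPM, and it gave most of the 2319 ± 172 CPM of the list in typical GCs against 2726 ± 1084 CPM in comparison nuclei, while *Slc32a1*, *Lhx6* and *Pvalb* were at 0 in typical GCs of all 4 mice. The list summed to 597 ± 565 CPM in the stricter nuclei. *Gad1* did not pass (−0.08), and against the stricter nuclei it was higher (2.22).

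Glial and other lists are read beside the 13.9% of all genes called higher and 16.4% called lower, and beside 14.0% and 13.7% against the stricter nuclei. The astrocyte list stood at 1142 ± 62.6 CPM against 585 ± 240 CPM through *Slc4a4*, a bicarbonate cotransporter (1024, 990, 1122 and 1078 CPM, log2 fold change 1.71), whereas *Aqp4* (−1.83) and *Slc1a3* (−1.41) were lower. Of 4 tested astrocyte markers 1 was higher and 3 lower, with a median of −1.62. Against the stricter nuclei (109 ± 54.7 CPM) 2 of 3 astrocyte markers were higher and none lower, with a median of 0.99. The oligodendrocyte list stood at 423 ± 46.4 CPM against 194 ± 40.4 CPM through *St18* (1.51), and *Mobp* (−0.49) did not pass. Of 5 tested oligodendrocyte markers 2 were higher and none lower, and against the stricter nuclei (104 ± 64.3 CPM) 2 of 3 were higher, with a median of 1.20. Both oligodendrocyte precursor markers tested, *Lhfpl3* and *Vcan*, were lower, and the list stood at 48.2 ± 11.6 CPM against 168 ± 73.9 CPM. In the stricter nuclei it stood at 52.2 ± 13.7 CPM, and neither gene was called. Microglia markers (134 ± 60.7 against 148 ± 31.5 CPM) had 1 of 4 lower, and 0 of 2 called against the stricter nuclei, and vascular markers (8.29 ± 3.59 against 15.5 ± 18.9 CPM) had none tested, with *Cldn5* at 0 in all 4 mice. Cajal-Retzius markers (22.7 ± 7.13 against 123 ± 64.1 CPM) had 2 of 2 lower, *Reln* by −2.65 and *Ndnf* by −1.85. Mossy cell markers (86.1 ± 18.5 against 69.1 ± 15.6 CPM) had *Sv2c* higher (2.03) and *Ajap1* lower (−0.84), with *Cartpt* at 0 in all 4 mice. The part of other cells' RNA in the results was not tested. The stricter nuclei cannot decide it, since they were chosen for 0 UMIs of the identity and class genes.

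Transcription factors of forebrain and GC lineages separated into higher and lower genes. Of 20 listed, 17 were tested, 8 were higher and 4 lower, with a median of 0.32 beside 13.9% higher, 16.4% lower and a median of −0.01 over all genes. *Bcl11b*, required for GC maturation and mossy fibre development, stood at 229, 183, 244 and 227 CPM against 81.1, 56.0, 66.6 and 85.8 CPM (log2 fold change 1.59). *Mef2c* (1.23) and *Nfia* (1.02) were higher, as were *Sox11* (0.85), *Nfix* (0.56), *Klf9* (0.55), *Nfib* (0.32) and *Zbtb20* (0.31). *Neurod6*, a marker of pyramidal neurons, stood at 9.59, 8.42, 11.2 and 8.53 CPM against 54.5, 44.5, 46.6 and 50.2 CPM (−2.40), and *Satb1* (−1.49), *Id2* (−0.86) and *Bcl11a* (−0.67) were also lower. The paralogues *Bcl11a* and *Bcl11b* thus went opposite ways, each without overlap between the classes. The proneural factors *Neurod1* (0.55) and *Neurod2* (0.37) did not pass.

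Relatives of the identity genes in the same families moved both ways. Of 24 listed 15 were tested, 3 were higher (*C1ql3*, *Chst15* at 1.71, *Chst1* at 0.47) and 7 lower, with a median of −0.59 beside 13.9% higher, 16.4% lower and a median of −0.01 over all genes. Against the stricter nuclei 1 of 10 was higher and 5 lower, with a median of −1.01, beside 14.0%, 13.7% and 0.02 over all genes. Among sulfotransferases *Chst8* (−2.35), *Chst2* (−1.42), *Chst11* (−0.94) and *Chst10* (−0.92) were lower. *Rfx4* (−1.46), *Glis1* (−0.88) and *Plk2* (−0.88) were lower, and *Rfx1* (0.40), *Rfx7* and *Glis2* (−0.33) did not pass. *Rfx4* and *Glis1* were no longer called with DESeq2 or without mouse F1 (−1.02 and −0.60), nor was *Glis1* without M2 (−0.90).

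Genes of the primary cilium, which RFX factors are known to regulate, for the most part did not pass, as was true of all genes tested. Of 31 listed, 28 were tested, 6 were higher and 2 lower beside 13.9% and 16.4% of all genes, with a median of 0.01 beside −0.01. The higher ones were components of intraflagellar transport and of the BBSome, *Ift20* (0.94), *Ift122* (0.79), *Ift57* (0.55), *Bbs4* (0.52), *Bbs9* (0.47) and the motor *Dync2h1* (0.42). *Bbs9* lost the call without F1, M1 or M2 (0.37, 0.39 and 0.39), with DESeq2 (0.57) and without the block (0.46), *Ift57* lost it without F2 (0.42) and with DESeq2 (0.56), and *Dync2h1* lost it without the block and after thinning. *Gli3* (−2.32) and *Gli2* (−1.98), transcription factors of hedgehog signalling, were lower, and both were too low to test against the stricter nuclei. There 3 of 23 genes of the list were higher and none lower beside 14.0% and 13.7% of all genes, and in V321L 2 of 28 were higher and 5 lower beside 13.2% and 15.9%.

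Genes of the mossy fibre terminal and partners of C1q-like proteins moved both ways, with 8 of 23 higher, 8 lower and a median of −0.14 beside 13.9%, 16.4% and −0.01 over all genes. Against the stricter nuclei 5 of 22 were higher and 8 lower, with a median of 0.05, beside 14.0%, 13.7% and 0.02 over all genes. *Grm2*, the presynaptic group II metabotropic glutamate receptor of mossy fibres, stood at 19.2, 12.6, 26.5 and 12.3 CPM against 4.45, 1.22, 3.33 and 2.74 CPM (log2 fold change 2.56). *Slc30a3*, the vesicular zinc transporter ZnT3 that fills mossy fibre vesicles, stood at 30.2, 13.5, 43.9 and 16.5 CPM against 11.1, 4.26, 15.0 and 4.56 CPM (1.58), higher in every mouse although the ranges overlapped. *Grik3* (1.10), *Cplx2* (0.90) and *Bdnf* (0.34) were higher. The call of *Grik3* was lost when nuclei were thinned to 1000 UMIs (0.54, adjusted p = 0.282 by edgeR's quasi-likelihood test). *Nrxn3*, a neurexin that C1ql proteins bind, fell from 8021, 9915, 10427 and 9553 CPM in comparison nuclei to 2720, 2631, 2511 and 2672 CPM (−1.85), and *Unc13b* (−1.31), *Syt12* (−1.30) and *Rims2* (−0.76) were lower.

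Of 28 genes of inhibition and excitability, 16 were higher and 4 lower, with a median of 0.44 beside 13.9%, 16.4% and −0.01 over all genes. *Gabrd*, the δ subunit of extrasynaptic GABA-A receptors that carry tonic inhibition in GCs, stood at 14.8, 9.26, 24.5 and 12.3 CPM against 7.78, 1.22, 3.33 and 1.83 CPM (log2 fold change 2.09). Its partner α4, *Gabra4*, stood at 446, 395, 371 and 420 CPM against 216, 191, 203 and 214 CPM (0.99). G-protein-gated potassium channel subunits *Kcnj9* (1.28), *Kcnj3* (0.97) and *Kcnj6* (0.65), the T-type calcium channel *Cacna1h* (1.13) and the sodium channel *Scn3a* (1.19) were higher. *Kcnq5*, an M-current channel, stood at 256, 536, 318 and 484 CPM against 2650, 3113, 2933 and 2301 CPM (−2.82). This channel was several times lower in each mouse. *Scn1a* (−0.55) fell less.

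Smaller lists concern position within the DG and GC subtypes, and are read beside 13.9% of all genes higher and 16.4% lower. All 4 genes of dorsal GCs were higher, *Spata13* (2.64), *Stra6* (1.99), *Lct* (1.75) and *Gsg1l* (1.61), and of 3 tested genes of ventral GCs *Cpne7* (−3.03) and *Nr2f2* (−1.38) were lower. *Trhr* did not pass (0.80). The dorsal list summed to 105 ± 11.2 CPM in typical GCs and 97.7 ± 8.59 CPM in GC nuclei removed by a subtype gene (SD, n = 4). The test was against comparison nuclei and not among GCs, so it does not place typical GCs within the DG. Of the immature neuron markers *Dcx* (−0.95) and *Camk4* (−1.32) were lower and *Sox11* higher. Of 9 genes the study named for semilunar GCs, a rare GC subtype, 7 were tested. *Kcnj2*, *Pcdh8* (1.46), *Scg2* (1.06) and *Nrg1* (1.03) were higher, *Kcnj2* at 14.0, 6.31, 15.3 and 10.1 CPM against 4.45, 2.44, 6.66 and 2.74 CPM, and *Vgf* (−1.60) and *Chgb* (−1.28) were lower. That list was chosen by the study on these samples and is no independent evidence of direction. *Nrg1*, which encodes neuregulin 1 and carries the V321L substitution in the other mice, stood at 700, 863, 596 and 613 CPM in WT typical GCs against 365, 524, 198 and 289 CPM, and in V321L its log2 fold change of −0.13 did not pass.

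**Figure D3:**
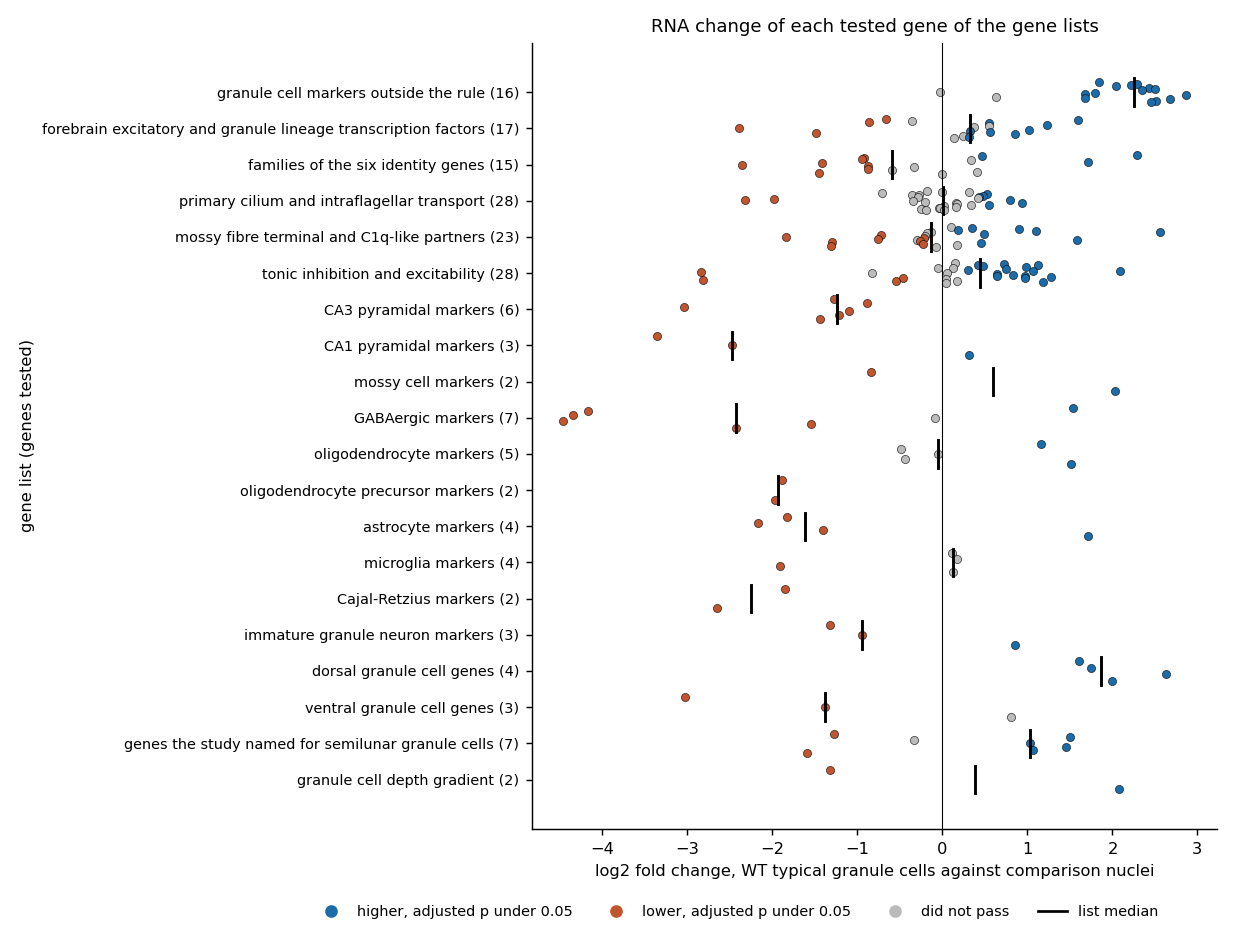
Log2 fold change (x axis) of every tested gene of 20 lists in WT typical GCs against comparison nuclei, with the number tested beside each list. Blue points are higher and orange points lower at an adjusted p under 0.05, grey points did not pass, and black ticks are medians, such as 2.26 for GC markers and −1.25 for CA3 markers.

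Within typical GCs, *Camk4* and *Ntng1*, genes of a gradient across the GC layer, were also followed per nucleus at 1000 UMIs. *Ntng1*, which encodes the axon guidance protein netrin-G1, was found in 39.3%, 38.8%, 42.9% and 42.9% of 527, 945, 445 and 679 nuclei, and *Camk4*, a calcium-dependent kinase, in 5.50%, 7.51%, 6.97% and 10.2%. Among the nuclei with *Camk4*, *Ntng1* was found in 31.0%, 26.8%, 9.68% and 34.8%, against 39.8%, 39.8%, 45.4% and 43.8% of those without. The share was lower with *Camk4* in all 4 mice, but it rests on 29, 71, 31 and 69 nuclei with *Camk4*, and it was not tested.

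Nuclei of V321L mice, which took no part in the WT comparison, gave a second set of libraries for the genes outside the rule. Against their own comparison nuclei 1550 of 11700 genes were higher (13.2%) and 1862 lower (15.9%). The higher count was 827 of 21493 with DESeq2, 897 of 10700 without the block and 1020 of 11348 without V321L mouse F2. Against the stricter nuclei 837 of 10629 were higher (7.87%) and 1031 lower (9.7%). Of 1293 genes higher in WT and tested in both, 1225 had the same direction in V321L and 798 were called higher. Of 1486 lower in WT, 1456 had the same direction and 1120 were called lower. The V321L nuclei were chosen by the same genes, so this likeness includes what the shared rule imposes. A single gene was called in opposite directions, *Klhl2*, named after its values were seen, at −0.24 in WT and 0.43 in V321L.

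Female and male typical GCs were compared in WT, with 2 mice of each sex. Of 9034 genes tested 2 were higher in females (0.0221%), *Xist* and *Tsix*, and 4 were lower (0.0443%), *Ddx3y*, *Eif2s3y*, *Kdm5d* and *Uty*, and 447 had an unadjusted p under 0.05. All 6 are on a sex chromosome. *Xist* stood at 918 and 961 CPM in the females and at 0 in the males, and *Ddx3y* and *Eif2s3y* were at 0 in the females, so the libraries matched their sex labels. The counts rest on which mice entered, with 17 higher and 17 lower without F1, 4 and 8 without F2, 13 and 9 without M1, and 29 and 101 without M2. On simulated counts of this design 17% of genes changed by 1 and 93% changed by 2 on the log2 scale were recovered.

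Chromatin accessibility, which was not used to choose the nuclei beyond a total of 500 counts, was compared in regions that held a peak in each of the 4 WT libraries. Of 44098 regions tested 6163 were more accessible in typical GCs (14.0%) and 5445 less (12.3%). Against the stricter nuclei 4076 of 43798 were more (9.31%) and 3056 less accessible (6.98%), and DESeq2 called 3463 and 3402 of 44139. With a peak in 2 or more libraries 8074 of 74215 were more and 9806 less accessible, which turned the balance. Regions are given with coordinates as in the deposited peaks, on mm10. Distances run to the stretch between a gene's first and last annotated start sites, so a region between distant start sites counts as at 0 kb. The region over the *Prox1* start site (chr1:190170163-190171166) stood at 35.8, 28.1, 33.0 and 41.0 ATAC counts per 1000000 counts in tested regions (ATAC CPM) in typical GCs and 21.1, 6.90, 13.5 and 17.6 in comparison nuclei. The classes did not overlap, with a log2 fold change of 1.27 ± 0.22 (SE, edgeR quasi-likelihood test, Benjamini-Hochberg adjusted p = 1.67e-05) that was 3.67 against the stricter nuclei. This region holds the *Prox1* promoter printed above with its 2 E-boxes.

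*C1ql2*, whose RNA was scarce in WT typical GCs, lay in more accessible chromatin. Its promoter region (chr1:120340203-120341087) stood at 53.3, 47.1, 53.7 and 64.7 ATAC CPM against 21.1, 10.7, 10.5 and 10.4, a log2 fold change of 2.11 ± 0.20 (SE). Every typical GC value was at least 2 times every comparison value. Regions 16.7 kb (chr1:120322927-120323848, 2.10) and 11.7 kb (chr1:120327897-120328878, 2.53) before the gene were also more accessible. A region at 1.7 kb (chr1:120337855-120338873, 0.88) passed with overlapping classes and lost the call with DESeq2, without doublets or without F1, F2 or M1 (0.86, 0.91 and 0.53), and a region on the other side at 16.4 kb did not pass (−0.41). Both regions within 1 kb of the *Plk5* start site, chr10:80355094-80356023 (1.22) and chr10:80357056-80358035 (1.33), were more accessible in all 4 mice.

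*Rfx3*, with the most UMIs of the 6 genes, showed no such difference at its promoter. The region with the promoter printed above (chr19:28010990-28012022) stood at 142, 106, 136 and 104 ATAC CPM against 92.4, 123, 107 and 94.4 (log2 fold change 0.25, adjusted p = 0.0803 by edgeR's quasi-likelihood test), and a second one between its start sites (chr19:28003201-28004158) had −0.15. The first passed without F2 (0.39) and without doublets (0.32). The region nearest to *Chst9*, 7.1 kb from its start site, did not pass (0.43), and no tested region lay within 20 kb of a *Glis3* start site.

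**Figure D4:**
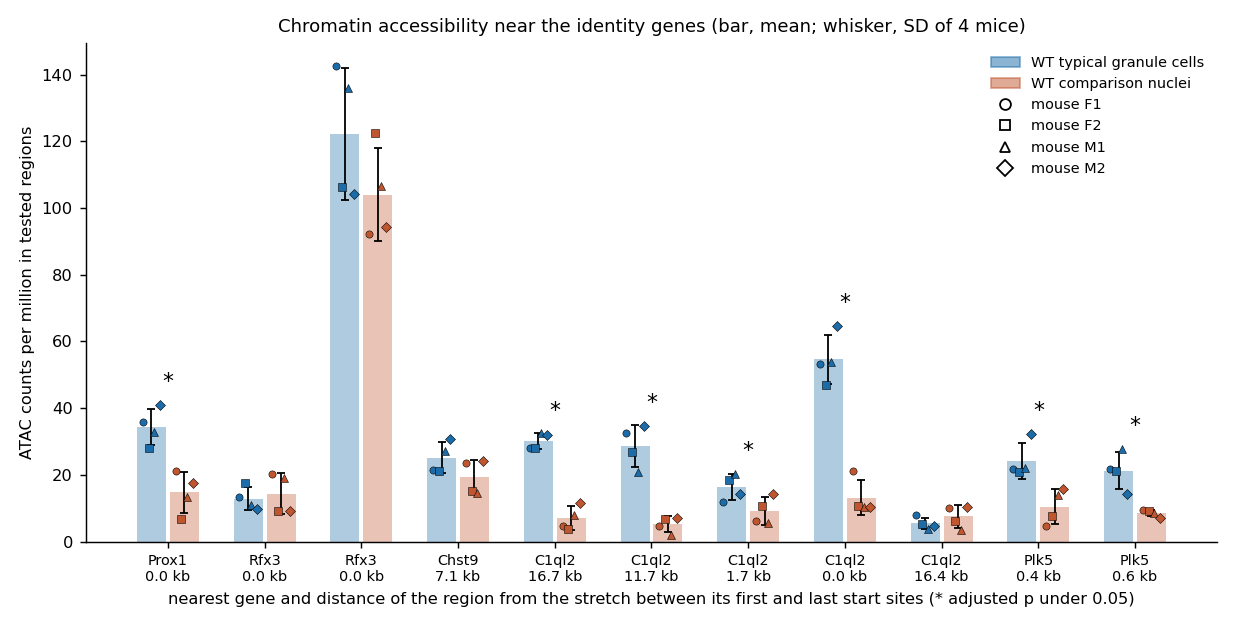
Accessibility (ATAC CPM, y axis, from 0) of WT typical GCs and comparison nuclei for the regions within 20 kb of the identity genes, labelled with their distance from the stretch between the gene's first and last start sites. Bars are means, whiskers the SD of 4 mice, symbols single mice and asterisks an adjusted p under 0.05. The C1ql2 promoter reaches 64.7 in typical GCs, and the Rfx3 promoter is at 92.4 or above in every mouse and class.

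Promoters of some other genes high in typical GCs were more accessible, and others were not. The *Stxbp6* region (chr12:45073853-45074845) stood at 26.1, 34.2, 31.7 and 32.7 ATAC CPM against 14.1, 10.7, 10.0 and 20.2 (log2 fold change 1.22), and it holds the promoter printed above. The *Calb1* promoter rose by 1.68, that of *Dsp* by 1.14, those of *Shisa9* (0.90), *Gpc4* (0.84), *C1ql3* (0.81) and *Bcl11b* (0.62) by less, and 2 more regions within 20 kb of *Dsp* rose by 2.22 and 0.89. *Dock10* and *Tiam1* have start sites far apart, and 4 of 4 and 11 of 15 regions in or within 1 kb of the stretch between them were more accessible. *Trpc6* (0.61, adjusted p = 0.0683 by edgeR's quasi-likelihood test), whose RNA was among the most different, did not pass, nor did *Fam163b*, and 1 of 4 regions between the start sites of *Sipa1l2* was less accessible and none more. At *Frmd4b* 3 of 9 such regions were more and 1 less accessible. These counts stand beside 8.03% more and 9.07% less accessible among all tested regions at that distance.

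Over all regions, those nearest to a gene with higher RNA were more accessible at a larger share than regions overall. In or within 1 kb of the stretch of start sites 21.7% of regions at genes with higher RNA were more accessible, beside 8.03% of all regions at that distance. Between 1 and 20 kb these shares were 33.9% and 15.6%, and beyond 20 kb 29.995% and 18.4%. At genes with lower RNA 21.8%, 22.9% and 23.5% of regions were less accessible at the 3 distances, beside 9.07%, 13.3% and 14.8% of all. Most regions at genes that differed in RNA did not themselves pass.

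**Figure D5:**
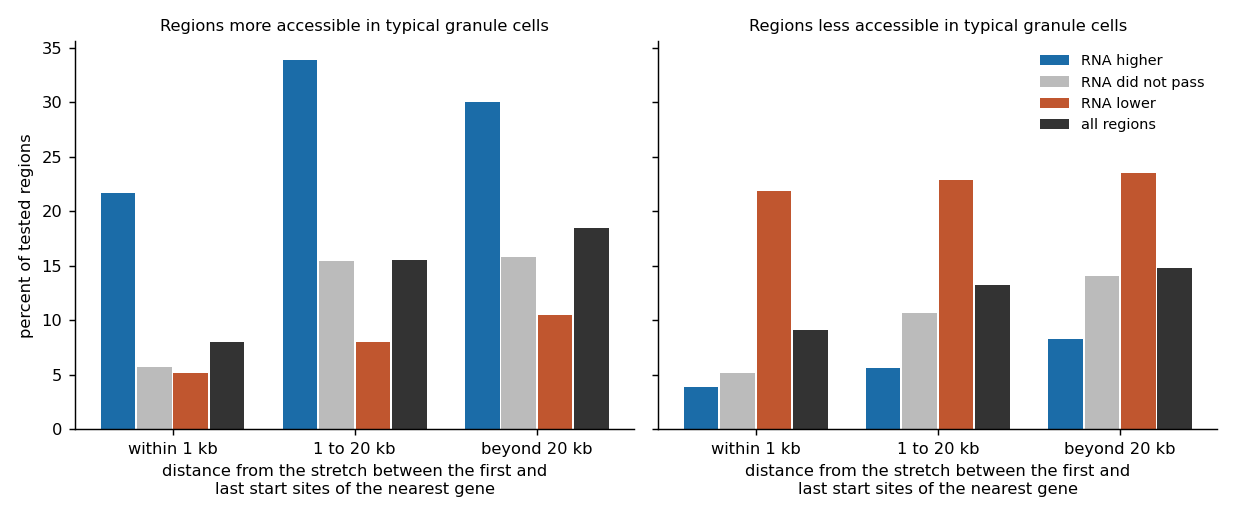
Percent of tested ATAC regions that were more accessible (left) and less accessible (right) in WT typical GCs than in comparison nuclei, by distance from the stretch between the first and last start sites of the nearest gene (x axis) and by the RNA call of that gene. Regions at genes with higher RNA are more accessible in 21.7%, 33.9% and 29.995%, above the 8.03%, 15.6% and 18.4% of all regions.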

How the data were processed

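Nuclei of the DG were profiled by 10x Genomics Multiome in 8 mice. Per the file headers, the authors ran Cell Ranger ARC 2.0.2, and the submitters' notes name mm10, Seurat and Signac. The deposited matrices hold counts without normalization. They cover 32285 genes (RNA UMIs) and the ATAC peaks called in each single library, for all 1592573 WT barcodes. WT libraries held 36808923 RNA UMIs and 56393575 ATAC counts in all.

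Barcodes counted as nuclei when UMIs lay above 500 and below 8916.1, genes above 250 and below 3307.526, mitochondrial UMIs below 2.787% and ATAC counts at 500 or above. Doublets were kept. As an alternative, 388 WT nuclei with a Scrublet score (scanpy 1.11.5) above the library mean + 2 SD were left out. The members and all gene lists were chosen with earlier results of these data known. Counts were summed per mouse and class and tested in R 4.3.3 with edgeR 4.0.16 (TMM, filterByExpr, quasi-likelihood test, Benjamini-Hochberg adjustment over all features tested). Mouse was a block because both classes came from the same mice. The 22 genes that chose nuclei stayed in the fits and were left out of every count. Overlapping WT peaks were merged into 105900 regions, and the 44139 with a peak in all 4 libraries were used, each assigned to the gene nearest by the start-site intervals of the deposited feature tables. Distances run to the interval between a gene's first and last start sites, so a region between them is at 0 kb however far it lies from each.

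Named genes were the 12 highest and 8 lowest by log2 fold change at 50 CPM or more with one direction in 4 of 4 mice, the identity genes, and examples from 21 lists of 237 genes. Genes without a symbol other than a provisional one were not named. Some list genes are counted in their lists but not reported singly here. Alternatives were DESeq2 1.42.0, library-size scaling, no filter, no block, other limits on nuclei, thinning to 1000 UMIs and leaving out each mouse. On simulated counts at a dispersion of 0.05, the WT comparison of 9076 genes recovered 37% of genes changed by 1 and 100% changed by 2 on the log2 scale, with 3 false calls. The same test recovered 42% and 100% for ATAC, and 53% and 100% for V321L. A planned estimate of free RNA from 328 nuclei with oligodendrocyte genes was set aside after their values were seen, because *St18* chose most of them and their GC markers were as high as in GCs. Sums and figures were made in Python 3.11.15 with pandas 2.3.3 and matplotlib 3.10.9.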

Additional observations from a re-analysis of the deposited data

Results flagged for a closer look

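Among 178 groups of 4 mice, 9 held 1 mouse far from the other 3, beside the 1 in 20 that chance alone gives. In typical GCs, *Glis3* stood at 937 CPM in M2 against 1171 to 1206 CPM in the other mice. *Zbtb20* stood at 5853 CPM in M1 against 6607 to 6738 CPM, and *Chst15* at 23.5 CPM in M1 against 11.2 to 12.5 CPM. The *Plk5* region chr10:80355094-80356023 stood at 32.4 ATAC CPM in M2 against 20.9 to 22.1.

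In comparison nuclei, *Nfia* stood at 330 CPM in M1 against 610 to 653 CPM, *Slc4a4* at 175 CPM in M1 against 358 to 375 CPM and *Cpne7* at 135 CPM in M1 against 46.3 to 55.7 CPM. *Grik3* stood at 7.30 CPM in M2 against 16.7 to 17.05 CPM, and the *C1ql2* promoter region chr1:120340203-120341087 at 21.1 ATAC CPM in F1 against 10.4 to 10.7. M1 was the low or high mouse in 3 of these 5 groups, and it held the fewest UMIs of comparison nuclei, 600357.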

How the results depend on the processing

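The direction of the 12 highest and 8 lowest genes at 50 CPM or more held in every WT setting run. One direction in all 4 mice was a condition of their choice. Counts of called genes moved more, and the number of genes tested moved with the setting. In WT it was 9523 in the main test, 23268 with DESeq2, 8282 without the replicate block and 6413 when thinned. With DESeq2, 679 genes were higher and 874 lower in WT, 676 and 841 of them also called by edgeR, and 827 were higher in V321L. Without the replicate block, 859 were higher in WT and 897 in V321L, and with nuclei thinned to 1000 UMIs 759 were higher and 905 lower in WT. Against the stricter comparison nuclei 837 were higher and 1031 lower in V321L, where this alternative was added after the data were seen. For ATAC regions DESeq2 called 3463 more and 3402 less accessible, the stricter nuclei 4076 and 3056, and a peak in 2 or more libraries gave 8074 more and 9806 less accessible, so that less accessible regions were then in the majority. Leaving out each mouse gave 966 to 1213 higher and 1197 to 1492 lower genes in WT, 1020 (without F2) to 1238 higher and 1419 to 1713 lower in V321L, and 4552 to 4975 more and 4038 to 4352 less accessible regions. Between the sexes the counts were 12 and 13 without a filter, and 4 to 29 and 8 to 101 without 1 mouse, which leaves 1 mouse of a sex assumed to vary like the others.

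*Il16*, which was not called, turned to 0.0128 without a filter, 0.0699 with 5 or more identity UMIs, 0.0324 with subtype genes free, 0.0329 without doublets and 0.00732 when thinned, with −0.198 to 0.0866 without 1 mouse. *Gad1* turned to 2.22 against the stricter nuclei and 0.0213 with nuclei in both classes left out (also added after the data were seen), with −0.230 to 0.0466 without 1 mouse, and the *Rfx3* region chr19:28003201-28004158 ran from −0.460 to 0.111 without 1 mouse. *Rfx4* (−1.38), *Glis1* (−0.89), *Ift57* (0.56) and *Bbs9* (0.57) lost the call with DESeq2, *Zbtb20* (0.30), *Dync2h1* (0.40) and *Bbs9* (0.46) without the replicate block, and *Grik3* (0.54) and *Dync2h1* (0.35) when thinned. The cause of these changes was not tested. *C1ql2* and *Plk5* in WT rest on 155 and 62 UMIs.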
